A study of Mus musculus with 18 samples.

Results

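The phase II conjugation enzymes are described here in the liver and small intestine of young germ-free mice colonised with gut microbiota from old or young donors. The members were all probe sets whose platform annotation gives exactly 1 gene symbol starting with Ugt, Sult or Gst followed by the class code of the family. This gave 50 genes, each with 1 probe set, out of 22180 genes named on the array, namely 11 Ugt, 21 Sult and 18 Gst genes. A further 9 probe sets carry a member's symbol together with other symbols and were left out by the rule. They include the Ugt1a genes, whose transcripts share exons, and Gsta1, Gsta2, Gstz1 and Gstm5. The rule reads gene symbols and uses no measured value.

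The OMT group was colonised from old donors, aged about 24 months (2 years in the sample labels), and the YMT group from young donors, given as 4 weeks old in the labels' protocol and as 5 to 6 weeks old in the design text. All recipients were germ-free C57BL\6 mice aged 5 to 6 weeks at the transfer and were kept for 8 weeks afterwards. Their age at sampling is labelled as 12 or 13 weeks. Each tissue contributed 5 OMT and 4 YMT samples, labelled as biological replicates, with 1 array each, 18 arrays in all. How many donors or cages stood behind each group is not given in the sources used here, so a shared donor or cage and donor age cannot be told apart. There was no germ-free and no conventionally raised group among these samples, so every comparison is between colonised recipients.

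Conjugation makes lipophilic molecules water-soluble by attaching a polar group. Members of the Ugt family sit in the endoplasmic reticulum and transfer glucuronic acid from UDP-glucuronic acid, the cytosolic Sult enzymes transfer sulfate from PAPS (the activated form of sulfate), and the Gst enzymes couple glutathione to electrophiles. Liver and intestine are the main sites of these reactions on bilirubin, bile acids, steroids, thyroid hormone, drugs and dietary compounds, and gut bacteria are known to cleave many conjugates that reach the lumen.

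Levels are log2 array values, and a difference is OMT minus YMT on that scale with its standard error (SE), so that 1 unit is a doubling. Each adjusted p comes from limma, corrected by Benjamini-Hochberg for all genes tested in that tissue, and a member is called higher or lower in OMT where this p lies under 0.05. Only genes with a level over the array's median on 4 or more of a tissue's 9 arrays were tested. Array medians were 4.12 to 4.22 in liver and 4.39 to 4.51 in intestine. The tissue labels matched their markers: the mean level of 9 hepatocyte markers was 12.28 to 12.44 across the liver arrays and 4.86 to 5.56 across the intestine arrays, and that of 9 enterocyte markers was 5.53 to 6.26 and 11.14 to 12.13. These are bulk samples, in which fewer cells of a type and less RNA per cell cannot be told apart. Probe sets of close relatives, such as those within the Gstm, Gstp, Ugt2b and Sult2a clusters, can detect each other's transcripts, so values of single members there are uncertain.

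In the OMT liver, 12 conjugation enzymes were lower and 3 were higher than in the YMT liver. The falls included the bile acid sulfotransferase Sult2a8 (2.95-fold lower), Gstp3 (3.16-fold), Gstm3 (2.36-fold), Sult1c2 (2.34-fold) and Ugt2b1 (2.19-fold). The rises were those of the phenol sulfotransferase Sult1a1 (1.70-fold), Gstt3 (1.56-fold) and Gsta3 (1.29-fold). These calls were among 31 members tested, while 8.78% of all 13380 genes tested in liver were called lower and 10.4% were called higher. After quantile normalization within the tissue the share of higher calls among all calls was 43.7% in place of 54.2%. The median difference was -0.17 over the 31 members and -0.005 over all genes tested. No member was admitted to the liver test by the arrays of 1 group alone, and 29 of the 31 lay above the median on all 9 arrays.

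**Figure D1:**
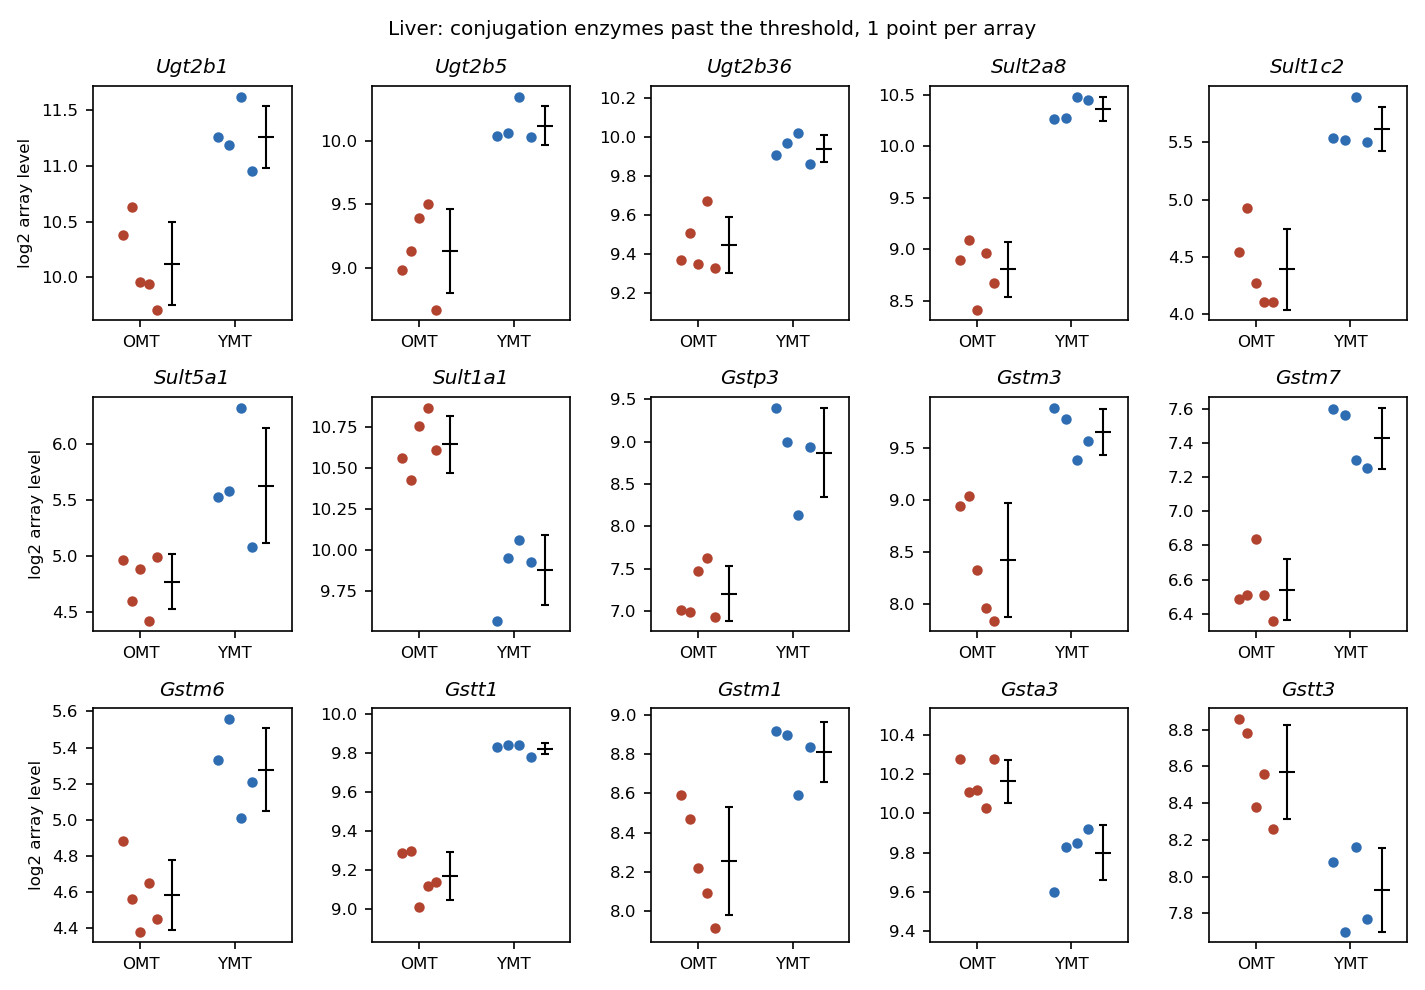
Log2 array level of the 15 conjugation enzymes past the threshold in liver, 1 panel per gene with its own axis range, 1 point per array in order of replicate number (5 OMT, red, and 4 YMT, blue), with the mean and SD in black. The OMT and YMT points do not overlap for any gene except Gstm1, where the highest OMT point equals the lowest YMT point at 8.59.

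Of the 11 Ugt genes, 9 were tested in liver, and Ugt2b1, Ugt2b5 and Ugt2b36 were lower in OMT. By limma none was higher, and 4 of the 9 had an unadjusted p under 0.05 in either direction. All 3 are members of the Ugt2b cluster, enzymes that act on steroids, bile acids and many drugs. Ugt2b1 measured 10.38, 10.63, 9.96, 9.94 and 9.71 in OMT replicates 1 to 5 and 11.26, 11.19, 11.62 and 10.95 in YMT replicates 1 to 4, a difference of -1.13 ± 0.19 (adjusted p = 0.00221). Every OMT liver lay below every YMT liver. Ugt2b5 was at 8.98, 9.13, 9.39, 9.5 and 8.67 against 10.04, 10.06, 10.35 and 10.03, a difference of -0.99 ± 0.16 (adjusted p = 0.00162), again without overlap. For Ugt2b36 the levels were 9.37, 9.51, 9.35, 9.67 and 9.33 in OMT and 9.91, 9.97, 10.02 and 9.86 in YMT, a smaller difference of -0.49 ± 0.08 (adjusted p = 0.00247).

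Other Ugt2 genes of the same chromosomal cluster did not pass. Ugt2b34 was at 10.83 ± 0.08 in OMT and 10.62 ± 0.19 in YMT (SD, n = 5 and n = 4; limma adjusted p = 0.139), and it passed at 0.29 when YMT replicate 3 was left out (adjusted p = 0.0384). Ugt2b35 differed by -0.12 ± 0.09 and Ugt2a3, which can glucuronidate bile acids, by 0.10 ± 0.10. The Ugt3a enzymes, which use other sugars than glucuronic acid, were at -0.27 ± 0.19 for Ugt3a1 and -0.12 ± 0.12 for Ugt3a2. Ugt8a, which makes the galactolipids of myelin, was close to the array median in both tissues. It lay at 4.23 to 4.28 in OMT and 4.08 to 4.56 in YMT livers, and read 4.52 on 6 of the 9 intestine arrays and 4.14 to 4.84 over all of them.

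The sulfotransferases went both ways in liver. Of 21 Sult genes 6 were tested, of which Sult2a8, Sult1c2 and Sult5a1 were lower in OMT and Sult1a1 was higher. Sult2a8, a liver enzyme that sulfates bile acids, measured 8.89, 9.09, 8.41, 8.96 and 8.67 in OMT and 10.26, 10.27, 10.48 and 10.45 in YMT. The groups lay more than 1 unit apart, and the difference was -1.56 ± 0.13 (adjusted p = 3.3e-05). Sult1c2 stood at 4.54, 4.93, 4.27, 4.1 and 4.1 against 5.54, 5.52, 5.90 and 5.50, a difference of -1.23 ± 0.17 (adjusted p = 0.000697). In the OMT livers its values lay near the array medians of 4.12 to 4.22. Sult5a1 was at 4.96, 4.60, 4.88, 4.42 and 4.99 in OMT and 5.52, 5.58, 6.32 and 5.08 in YMT (difference -0.86 ± 0.22, adjusted p = 0.0186). Its OMT values, too, lay little above the array medians.

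Sult1a1, which sulfates phenols, was higher in every OMT liver, at 10.56, 10.43, 10.76, 10.87 and 10.61 against 9.57, 9.95, 10.06 and 9.93 (difference 0.77 ± 0.12, adjusted p = 0.00128). Sult1b1, known for sulfating thyroid hormone, was at 6.27 ± 0.31 in OMT and 5.87 ± 0.19 in YMT and did not pass (SD, n = 5 and n = 4; limma adjusted p = 0.0966). Sult1d1, which acts on catecholamines, differed by 0.04 ± 0.16.

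Of the 18 Gst genes 16 were tested in liver, with 6 lower, 2 higher and 8 not past the threshold.  Among the mu class, which forms a single cluster of neighbouring genes, Gstm1, Gstm3, Gstm6 and Gstm7 were lower, and Gstm2 (-0.17 ± 0.18) and Gstm4 (-0.28 ± 0.09, adjusted p = 0.0554) did not pass. Gstm4 passed without OMT replicate 3 (-0.33, adjusted p = 0.0287). Gstm3 measured 8.94, 9.04, 8.33, 7.96 and 7.84 in OMT and 9.89, 9.78, 9.39 and 9.57 in YMT, a difference of -1.24 ± 0.24 (adjusted p = 0.00562). All OMT livers were lower, and replicates 1 and 2 lay nearest to the YMT range. Gstm7 was at 6.49, 6.51, 6.84, 6.51 and 6.36 against 7.60, 7.56, 7.30 and 7.25 (difference -0.89 ± 0.11, adjusted p = 0.000397). Gstm6 was at 4.88, 4.56, 4.38, 4.65 and 4.45 against 5.33, 5.56, 5.01 and 5.21 (difference -0.69 ± 0.13, adjusted p = 0.0036). Both kept apart from the YMT livers on every array. In the OMT livers Gstm6 lay little above the array medians of 4.12 to 4.22. Gstm1 was at 8.59, 8.47, 8.22, 8.09 and 7.91 against 8.92, 8.90, 8.59 and 8.84 (difference -0.56 ± 0.14, adjusted p = 0.0166), and it no longer passed without YMT replicate 2 (-0.53, adjusted p = 0.0529).

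In the pi class, Gstp3 differed and its neighbours did not pass. Gstp3 measured 7.02, 6.99, 7.48, 7.63 and 6.93 in OMT and 9.40, 9, 8.14 and 8.94 in YMT (difference -1.66 ± 0.23, adjusted p = 0.000841), with YMT replicate 3 the lowest of its group. Gstp1, the main pi class enzyme and known to be higher in male mouse liver, was at 11.42 ± 0.15 in OMT and 11.50 ± 0.12 in YMT, a difference of -0.08 ± 0.09. Gstp2 differed by -0.17 ± 0.11.

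The theta class held calls in opposite directions for adjacent genes. Gstt1, which conjugates small halogenated compounds, was at 9.29, 9.30, 9.01, 9.12 and 9.14 in OMT and 9.83, 9.84, 9.84 and 9.78 in YMT (difference -0.65 ± 0.08, adjusted p = 0.000255). Its neighbour Gstt3 was higher, at 8.86, 8.78, 8.38, 8.56 and 8.26 against 8.08, 7.70, 8.16 and 7.77 (difference 0.64 ± 0.14, adjusted p = 0.0103). Neither pair of groups overlapped. Gstt2 was at 0.26 ± 0.12 (adjusted p = 0.172).

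Gsta3, the alpha class enzyme known for detoxifying aflatoxin in mice, was slightly higher in the OMT liver, at 10.28, 10.11, 10.12, 10.03 and 10.28 against 9.60, 9.83, 9.85 and 9.92 (difference 0.36 ± 0.09, adjusted p = 0.0141). It did not pass in a fit of all 18 arrays (adjusted p = 0.297). Gsta4, which removes the lipid peroxidation product 4-hydroxynonenal, was at 8.94 ± 0.38 and 9.35 ± 0.18 and did not pass (SD, n = 5 and n = 4; limma adjusted p = 0.135). The omega class enzyme Gsto1 (-0.07 ± 0.08) and the mitochondrial and peroxisomal Gstk1 (-0.08 ± 0.08) did not pass either. Of the 15 members called in liver, 14 had groups that did not overlap, 11 of them lower and 3 higher in OMT. Over all genes tested, 8.51% lay wholly lower and 9.64% wholly higher.

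Promoter windows from RefSeq (GRCm38.p6) were available for 43 of the 50 members, 53 windows in all, and the 250 bases before each start were searched on both strands for 3 motifs. The core of the antioxidant response element, TGACNNNGC, was found in 2 of the 53 windows (3.77%, against 10.2% of all 32851 windows), and the core of the xenobiotic response element bound by the aryl hydrocarbon receptor, GCGTG, in 8 (15.1%, against 28.2%). The STAT5 site TTCNNNGAA was found in 2 (3.77%, against 7.02%). Windows of alternative starts of a gene can overlap. The 3 windows below belong to members called in liver whose most upstream listed start had a match, shown 5′ to 3′ on the gene's strand with the match in capitals. For Gsta3 (chr1:21240335-21240584, plus strand) it is the antioxidant core, starting 121 bases before the start site. For Gstm1 (chr3:108017974-108018223, minus strand) and Gstp3 (chr19:4059448-4059697, minus strand) it is the xenobiotic core, 76 and 235 bases before the start. A match is a run of letters and not a measured binding site.
Gsta3: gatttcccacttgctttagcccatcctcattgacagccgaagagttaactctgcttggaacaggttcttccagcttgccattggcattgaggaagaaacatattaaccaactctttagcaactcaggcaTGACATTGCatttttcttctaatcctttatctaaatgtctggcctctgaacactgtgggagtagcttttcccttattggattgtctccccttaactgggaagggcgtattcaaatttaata
Gstm1: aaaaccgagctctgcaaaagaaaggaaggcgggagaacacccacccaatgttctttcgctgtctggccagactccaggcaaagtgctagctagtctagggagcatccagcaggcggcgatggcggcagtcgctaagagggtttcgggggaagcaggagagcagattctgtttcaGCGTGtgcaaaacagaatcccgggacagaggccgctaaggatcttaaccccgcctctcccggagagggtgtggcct
Gstp3: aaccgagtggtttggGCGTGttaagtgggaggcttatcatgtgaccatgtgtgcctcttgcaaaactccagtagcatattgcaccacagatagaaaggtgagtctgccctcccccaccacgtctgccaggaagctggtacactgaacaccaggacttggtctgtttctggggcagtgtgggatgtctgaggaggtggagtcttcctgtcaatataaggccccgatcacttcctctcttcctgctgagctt

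The other 19 members were below the level filter in liver, 15 of them Sult genes, with values between 1.19 and 5.34. Sult1e1, the estrogen sulfotransferase, was the clearest case: it measured 4.18, 3.84, 4.78, 5.34 and 4.69 in OMT and 2.67, 3.23, 3.21 and 2.75 in YMT. All OMT livers were above all YMT livers, and without the filter the difference of 1.6 ± 0.27 passed (adjusted p = 0.00383). Sult1e1 lay above the array's median on 3 OMT and 0 YMT liver arrays. Without the filter, 1127 of 22180 genes were called higher in liver and 974 lower. Ugt2b38, a gene known to be higher in males, measured 2.23, 1.72, 1.81, 1.88 and 1.87 in OMT and 3.24, 2.57, 4.17 and 3.01 in YMT. Its values lay below the array's median on all liver arrays except YMT replicate 3, and its difference of -1.35 ± 0.26 was called lower in the test without the filter (adjusted p = 0.00839). The Sult2a1 to Sult2a6, Sult3a1 and Sult3a2 genes, which are known for higher expression in female mouse liver, lay below the array's median on every liver array. The mean level of the 8 genes was 2.20 to 2.68 in OMT and 2.36 to 2.46 in YMT livers, and their untested differences ran from -0.41 (Sult2a5) to 0.44 (Sult3a1). Sult3a1 was at 1.37, 1.6, 2.26, 2.31 and 2.86 in OMT and 1.83, 1.56, 1.77 and 1.40 in YMT. For the 3 members listed as male-biased (Gstp1, Gstp2 and Ugt2b38) the mean level was 7.63 to 7.89 in OMT and 8.04 to 8.72 in YMT livers. Gstp1 (-0.08) and Gstp2 (-0.17) did not pass, and Ugt2b38 (-1.35) was below the filter. The gap in the list mean therefore came mainly from Ugt2b38 and does not show a shift of all 3 genes.

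The OMT livers were not alike. In 15 of the 31 tested members, OMT replicates 1 and 2 both lay above (8 members) or below (7 members) OMT replicates 3 to 5, while the shares over all tested genes were 16.7% above and 17.7% below. Replicates 1 and 2 lay above the others for Gstm3, Gstm1, Gstt1, Gstt3, Gsta4, Ugt2b1, Sult1c2 and Ugt2a3, and below them for Gstk1, Gstp2, Gstt2, Sult1a1, Sult1b1, Ugt3a1 and Ugt3a2. Without these 2 livers, which was tried only once the values were known, 5 members were higher and 12 lower. Gstt2 (0.44, adjusted p = 0.0108) and Sult1b1 (0.57, adjusted p = 0.0349) were then called higher and Gsta4 lower (-0.68, adjusted p = 0.00608), while Sult5a1 was no longer called (-0.86, adjusted p = 0.0545). In the intestine the same replicates lay above the others in 1 and below them in 5 of 27 tested members, where the shares over all genes were 9.72% and 22%.

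Several lists of cell type markers had unlike levels in the OMT and YMT livers. The mean level of 5 endothelial markers was 6.62 to 6.85 in OMT and 7.13 to 7.41 in YMT livers, and that of 6 stellate cell and fibroblast markers 6.03 to 6.18 and 6.23 to 6.55. In each list 3 genes were called lower. Among 4 smooth muscle markers 2 were lower (list mean 4.90 to 5.18 and 5.15 to 5.60), and among 6 macrophage and Kupffer cell markers Clec4f was lower and Marco higher. Of 9 hepatocyte markers Apoh was called higher, and the list's mean was 12.35 to 12.44 in OMT and 12.28 to 12.36 in YMT. Of 9 enterocyte markers 5 were tested, and Apoa4 and Treh were higher (list mean 5.77 to 6.26 and 5.53 to 5.64). Fabp2, Alpi and Anpep did not pass, and Apoa4 lay at 9.18 or more on every liver array, so the list mean does not show enterocytes there. The mean of 8 pericentral hepatocyte markers was 8.32 to 8.63 in OMT and 8.67 to 8.86 in YMT, with 3 called lower and 1 higher, and that of 6 periportal markers 9.03 to 9.43 and 9.48 to 9.57, with 3 called lower. The part of these shifts in the enzyme differences was not tested.

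In the small intestine only Gstm6, a mu class enzyme, passed the threshold, and it was higher in OMT (1.48-fold). Of 13238 genes tested 1.04% were called higher and 3.1% lower. The 27 tested members were 6 Ugt, 5 Sult and 16 Gst genes, with a median difference of -0.16 against -0.02 over all genes. By limma no member was called lower, and 10 of the 27 had an unadjusted p under 0.05 in either direction. Gstm6 measured 5.13, 4.56, 4.81, 4.73 and 4.44 in OMT and 4.07, 4.39, 4.08 and 4.14 in YMT, a difference of 0.56 ± 0.14 (adjusted p = 0.0465). The groups did not overlap, but Gstm6 and Gstm7 entered the test through their OMT arrays alone, since all YMT values lay below the array medians. The call was lost without the filter (adjusted p = 0.0747) and without any 1 of YMT replicates 1 to 4 (0.53 to 0.64, adjusted p = 0.0756 to 0.114). It could not be tested without OMT replicates 1, 2, 3 or 4, since it then failed the filter.

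Gstm7 was also without overlap, at 4.99, 4.45, 4.90, 5.26 and 4.51 in OMT and 4.25, 4.35, 4.35 and 4.17 in YMT (difference 0.54 ± 0.16), and did not pass (adjusted p = 0.0762). Gsta3 (0.80 ± 0.30, adjusted p = 0.145) and Gstm1 (0.54 ± 0.20, adjusted p = 0.14) had positive differences that did not pass. Gsta3 was near the array median there, above it on 4 OMT arrays and 1 YMT array. The pi class had negative ones, with Gstp1 at 10.01 ± 0.26 in OMT and 10.37 ± 0.08 in YMT (SD, n = 5 and n = 4; limma adjusted p = 0.126) and Gstp2 at -0.37 ± 0.12 (adjusted p = 0.111). Of the 26 members not called, Gsta3 and Gstm7 lay wholly above and Gstp2 wholly below their YMT values, against 2.8% and 6.84% of all genes tested. Gstp1 passed when OMT replicate 1 was left out (-0.47, adjusted p = 0.0275). Among the transferases for sugar and sulfate, Ugt2b5 (-0.71 ± 0.31, adjusted p = 0.206), Ugt2b36 (-0.53 ± 0.18, adjusted p = 0.115) and the cholesterol sulfotransferase Sult2b1 (-0.27 ± 0.10, adjusted p = 0.15) did not pass. Ugt2b36 lay above the array median on only 1 OMT and 3 YMT intestine arrays. Ugt2b34 (-0.22 ± 0.11), Sult1b1 (-0.23 ± 0.14), Sult1d1 (0.10 ± 0.08), Gsto1 (-0.09 ± 0.07) and Gstk1 (-0.19 ± 0.21) did not pass either (limma adjusted p of 0.29 to 0.62).

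Ugt2a3 varied more within the intestine groups than between them. It measured 8.58, 7.83, 8.15, 7.83 and 6.57 in OMT and 5.34, 7.93, 8.54 and 7.41 in YMT. The groups overlapped, with YMT replicate 1 the lowest array of all. The mean level of 7 goblet cell markers was 10.93 to 11.49 in OMT and 11.53 to 11.75 in YMT intestines, and that of 5 T and NK cell markers 6.32 to 6.98 and 6.97 to 7.65. In each of these lists 1 gene was called lower, Clca1 and Gzmb. The ranges of 9 enterocyte markers (11.81 to 12.13 and 11.14 to 12.05) and of 5 markers of the distal small intestine (9.92 to 10.75 and 10.33 to 11.01) overlapped. Their part in the enzyme values was not tested. The 23 members below the filter in intestine, including Sult2a8 and Ugt2b1, had values of 1.24 to 4.32 and differences of -0.31 to 0.41.

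**Figure D2:**
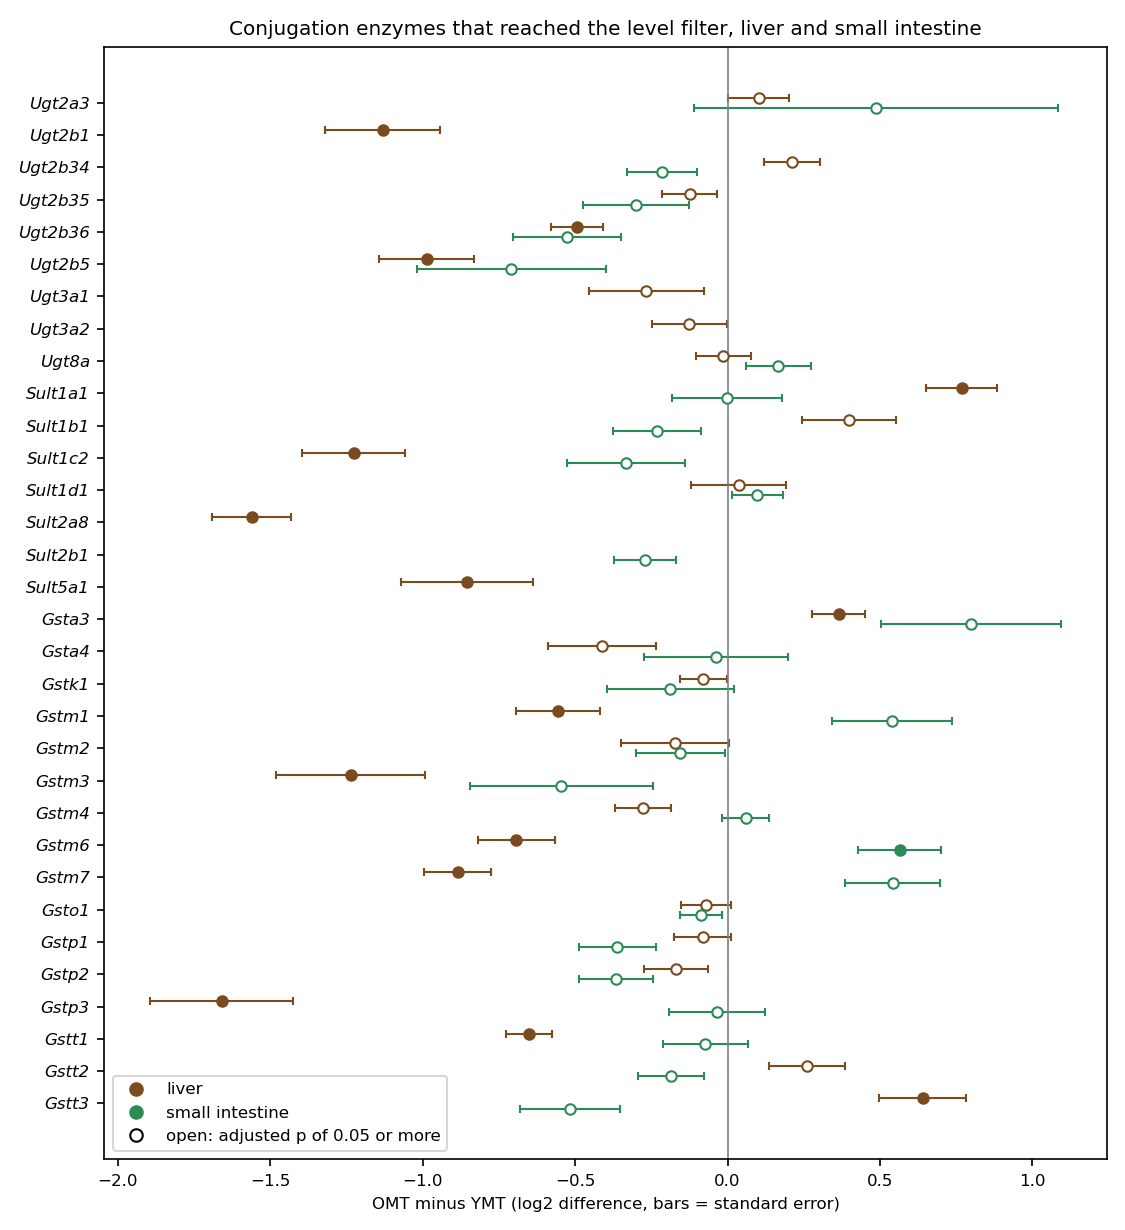
Difference of OMT minus YMT on the log2 scale with its standard error for each conjugation enzyme that reached the level filter, in liver (brown) and small intestine (green); filled points have an adjusted p under 0.05. The 15 filled liver points run from -1.66 (Gstp3) to 0.77 (Sult1a1), and Gstm6 is the 1 filled point of the intestine.

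Whether the donor effect was unequal in the tissues was tested directly for the 26 members that passed the filter in both. It was unequal for 8 of them, and over the 11965 genes tested in both tissues the difference was more positive in liver for 7.91% and more negative for 4.04%. Quantile normalization within each tissue gave 49.7% more positive among all such calls in place of 66.2%. For the 8 members the number fell to 5 without OMT intestine replicate 3. The mu class enzymes Gstm7, Gstm6 and Gstm1 were lower in the OMT liver while their intestinal differences were positive. The gap between the tissues, liver minus intestine, was -1.43 ± 0.20 for Gstm7 (adjusted p = 0.000161), -1.26 ± 0.19 for Gstm6 (adjusted p = 0.000414) and -1.10 ± 0.25 for Gstm1 (adjusted p = 0.00817). Gstm7 and Gstm6 entered this test through their OMT intestine arrays alone, and their YMT intestine values all lay below the array medians, so the size of these gaps is uncertain. Each of them passed in the 22 settings in which it could be tested. Neither could be tested with the stricter filter, without OMT intestine replicates 1, 3 or 4 or without replicates 1 and 2 together, nor Gstm6 without replicate 2 and Gstm7 without replicate 5. In the intestine Gstm1 was at 7.82, 7.39, 7.82, 8.15 and 7.27 in OMT and 6.92, 7.35, 7.49 and 6.84 in YMT. Its groups overlapped there. Gstm3 had negative differences in both tissues (-1.24 and -0.55) and did not differ past the threshold between them (gap -0.69 ± 0.41, adjusted p = 0.284).

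Gstt3 showed the opposite pattern, higher in the OMT liver by 0.64 and at -0.52 ± 0.16 in the intestine, a gap of 1.16 ± 0.23 (adjusted p = 0.00319). Its intestinal levels were 5.89, 5.73, 6.38, 6.55 and 6.35 in OMT and 6.72, 6.85, 6.52 and 6.70 in YMT. Only OMT replicate 4 reached into the YMT range there. Gstp3 (gap -1.63 ± 0.30, adjusted p = 0.00203) and Gstt1 (gap -0.58 ± 0.16, adjusted p = 0.0265) were lower in the OMT liver, with intestinal differences of -0.03 ± 0.16 and -0.07 ± 0.14. The Gstt1 gap did not pass without YMT intestine replicate 4 (-0.51, adjusted p = 0.0644).

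The sulfotransferases Sult1a1 (gap 0.77 ± 0.22, adjusted p = 0.031) and Sult1c2 (gap -0.89 ± 0.27, adjusted p = 0.0366) also differed between tissues, with less stability. The Sult1a1 gap was lost without OMT intestine replicates 1 (0.71, adjusted p = 0.0508) or 3 (0.75, adjusted p = 0.0505) or YMT liver replicate 1 (0.67, adjusted p = 0.0623). Intestinal Sult1a1 lay at 4.77 to 5.2 in OMT and at 5.64, 4.74, 4.84 and 4.76 in YMT. The Sult1c2 gap was lost on leaving out any 1 of 12 arrays, with an adjusted p of 0.0504 to 0.0808. These were OMT intestine replicates 2, 3 and 5, YMT intestine replicates 2, 3 and 4, OMT liver replicates 3, 4 and 5, and YMT liver replicates 2, 3 and 4. Its intestinal value was the same, 4.57, on 6 of the 9 arrays, and 5.46 on YMT replicate 1.

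A few gaps missed the threshold and passed with 1 array left out. These were Sult1b1 (0.63 ± 0.22, adjusted p = 0.0666, and 0.039 without YMT intestine replicate 1), Gstm4 (-0.34 ± 0.12, adjusted p = 0.0731, and 0.0397 without OMT liver replicate 3) and Gstt2 (0.45 ± 0.17, adjusted p = 0.0912). The Gstt2 gap passed without OMT intestine replicate 1 (adjusted p = 0.0394) or OMT liver replicate 2 (adjusted p = 0.0418). The Ugt2b34 gap (0.43 ± 0.15, adjusted p = 0.0684) passed without OMT intestine replicates 3 (adjusted p = 0.0379) or 4 (adjusted p = 0.0336) or YMT liver replicate 3 (adjusted p = 0.0349).

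**Figure D3:**
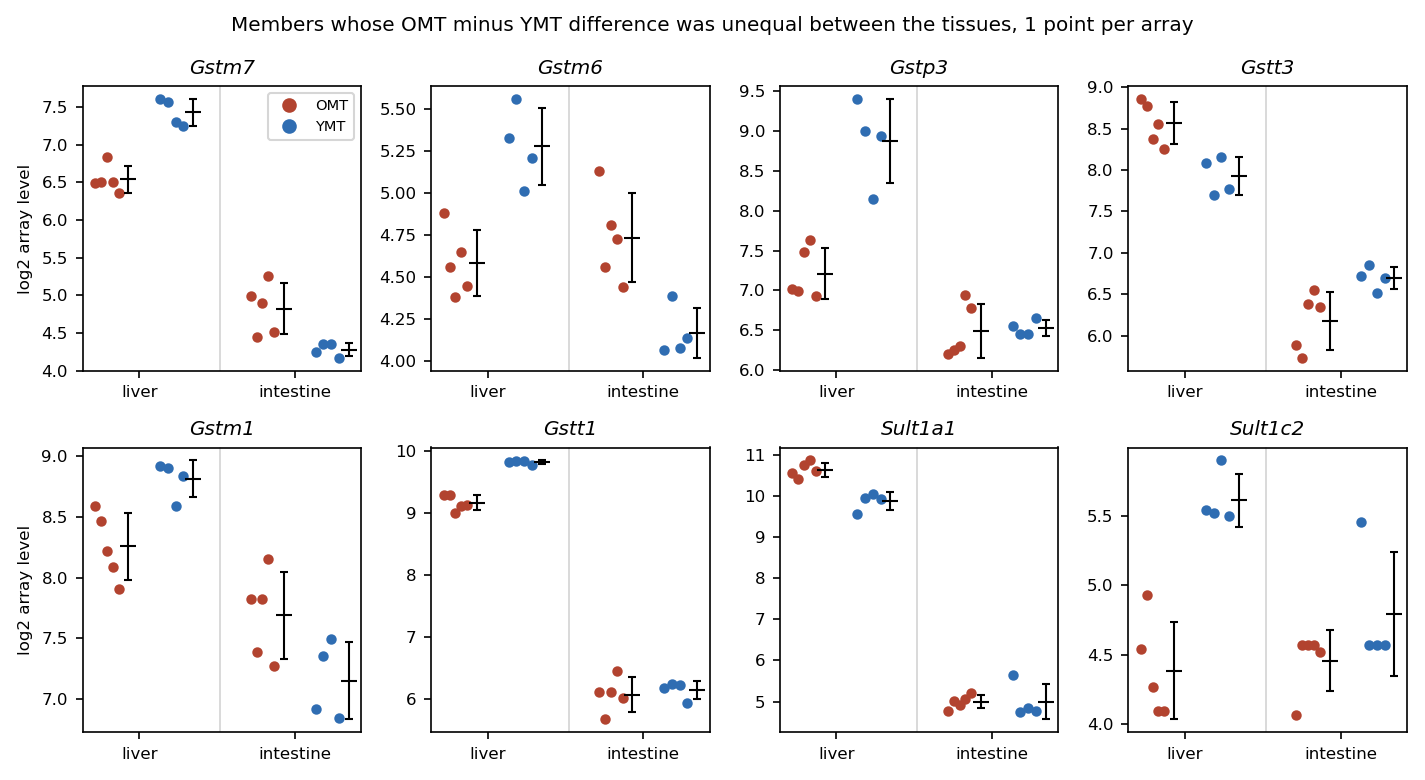
Log2 array level of the 8 conjugation enzymes whose OMT minus YMT difference was unequal between liver and small intestine, 1 panel per gene with its own axis range, 1 point per array (OMT red, YMT blue) with the mean and SD in black. For Gstm7 and Gstm6 the OMT points lie below the YMT points in liver and above them in intestine.

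The liver counts below are to be read against the 10.4% of all genes called higher and 8.78% called lower in liver. For PAPS supply (2 of 10 called) and transport (3 of 14 called) they were near that background. In the intestine the shares over all genes were 1.04% higher and 3.1% lower. For glucuronidation, Ugp2, which makes UDP-glucose, was lower in the OMT liver (-0.80 ± 0.14, adjusted p = 0.00253), as was the nucleotide sugar carrier Slc35d2 (-0.54 ± 0.16, adjusted p = 0.0424), 2 of 7 tested supply genes. For sulfation, Papss2, the PAPS-making enzyme of liver, was lower, at 10.01 ± 0.24 in OMT and 10.78 ± 0.08 in YMT (SD, n = 5 and n = 4; limma adjusted p = 0.00123). Cdo1, which oxidises cysteine on the way to sulfate, was higher (0.35 ± 0.07), and the other 8 of 10 PAPS genes did not pass. Of 18 tested genes of glutathione supply and recycling, 5 were higher and none lower in the OMT liver by limma, with 8 at an unadjusted p under 0.05 in either direction. The higher ones included Cth, which makes cysteine (1.16 ± 0.11, adjusted p = 6.71e-05), Gclm, the modifier subunit of the rate-limiting enzyme of glutathione synthesis (0.60 ± 0.10, adjusted p = 0.00206), Ggt6 (0.52 ± 0.11) and Txnrd1 (0.41 ± 0.10). In the intestine Slc35d2 (-0.56 ± 0.13), Slc35b3, a PAPS carrier (-0.40 ± 0.08), the phosphatase Bpnt2 (-0.55 ± 0.09) and Gpx1 (-0.38 ± 0.07) were lower. Gclc, the catalytic subunit of glutathione synthesis, was higher there (0.67 ± 0.11, adjusted p = 0.0124). These were 1 of 7 tested genes of UDP-glucuronic acid supply, 2 of 10 of PAPS supply and 2 of 17 of glutathione supply and recycling.

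Among enzymes and carriers that handle conjugates, the 3 transport genes called in liver were as follows. The uptake carrier Slco1a1 was lower (-4.56 ± 0.14), and Slco1a4 (0.84 ± 0.11) and the basolateral exporter Abcc4 (0.49 ± 0.15) were higher. Of 8 tested genes for the removal of conjugates, esters or epoxides, the sulfatases Arsa (-0.85 ± 0.10) and Arsb (-0.81 ± 0.14) and the glucuronidase Gusb (-0.26 ± 0.08) were lower. The esterase Ces1d (0.41 ± 0.12) was higher. These 8 include Sumf1, the activator of sulfatases, and not the steroid sulfatase Sts, which was not tested. Whether Arsa and Arsb act on conjugates made by the Sult enzymes was not measured. Other conjugation enzymes split, with 5 higher and 2 lower of 16 tested. The histamine methyltransferase Hnmt (-0.74 ± 0.10) and the indole methyltransferase Inmt (-0.86 ± 0.16) were lower, and Nat8 (0.59 ± 0.16) and Baat, which links bile acids to taurine or glycine (0.34 ± 0.09), were among the higher ones. In the intestine none of 10 transport genes was called by limma, and 3 had an unadjusted p under 0.05. Sumf1 (-0.61 ± 0.10) and the arsenic methyltransferase As3mt (-0.85 ± 0.10) were lower, and the epoxide hydrolase Ephx2 was higher (1.48 ± 0.23, adjusted p = 0.00865). Sumf1 and Ephx2 were 2 of 7 tested removal genes there, and As3mt was 1 of 12 other conjugation enzymes.

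Several nuclear receptors that control these enzymes were higher in the OMT liver. Of 27 tested regulators 10 were higher and 2 lower. The xenobiotic receptor CAR (Nr1i3) measured 9.92 ± 0.15 in OMT and 8.01 ± 0.43 in YMT (SD, n = 5 and n = 4; limma adjusted p = 5.97e-05), and the related receptor PXR (Nr1i2) was higher by 0.67 ± 0.11. The estrogen receptor Esr1 (1.23 ± 0.13) and the regulator Trim24 (2.06 ± 0.11) were higher, and the repressor Bcl6 (-2.39 ± 0.40) and Stat5b (-0.49 ± 0.11), which act in growth hormone control of sex-biased liver genes, were lower. Ahr, the gene of the aryl hydrocarbon receptor (AhR), and Arnt were also higher (0.59 ± 0.10 and 0.41 ± 0.09). Known targets of CAR, PXR and AhR were called in both directions. Of 8 tested CAR and PXR targets, Cyp2c55 (-1.89 ± 0.23), Cyp3a11 (-1.23 ± 0.24) and Cyp2c29 (-0.99 ± 0.20) were lower and Cyp2b9 (1.59 ± 0.31) and Cyp3a13 (1.29 ± 0.13) higher. Cyp2b10 (-1.35 ± 0.46), Cyp3a25 (0.30 ± 0.40) and Abcc3 (0.01 ± 0.07) did not pass. Of 4 AhR targets, Cyp1a2 was lower (-1.88 ± 0.40) and Nqo1 higher (1.21 ± 0.17).

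Targets of NRF2, the transcription factor of the antioxidant response, were higher in the OMT liver in 7 of 9 tested, with a median difference of 0.60. Hmox1, which degrades haem, was at 7.38 ± 0.16 in OMT and 6.42 ± 0.23 in YMT (SD, n = 5 and n = 4; limma adjusted p = 0.000375), Aox1 differed by 0.68 ± 0.11, and Nqo1 and Gclm, given above, were also among them. Gclm and Txnrd1 were also counted above under glutathione supply and recycling, so these counts share genes. The 16 tested Gst genes, counted whether or not they are known NRF2 targets, had 6 members lower and 2 higher in the same livers. Gsta1 and Gsta2 were left out by the rule. Nfe2l2, the gene of NRF2, differed by 0.18 ± 0.09 and did not pass (limma adjusted p = 0.203). A link between NRF2 and the Gst values was not tested. In the intestine 1 of 8 NRF2 targets (Gclc) and 2 of 28 regulators were called, namely Cebpa (0.55 ± 0.13), which was higher, and the bile acid receptor Nr1h4 (-0.92 ± 0.18), which was lower. The AhR target Tiparp was higher (0.66 ± 0.11), and by limma none of 6 CAR and PXR targets passed, with 2 at an unadjusted p under 0.05.

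**Figure D4:**
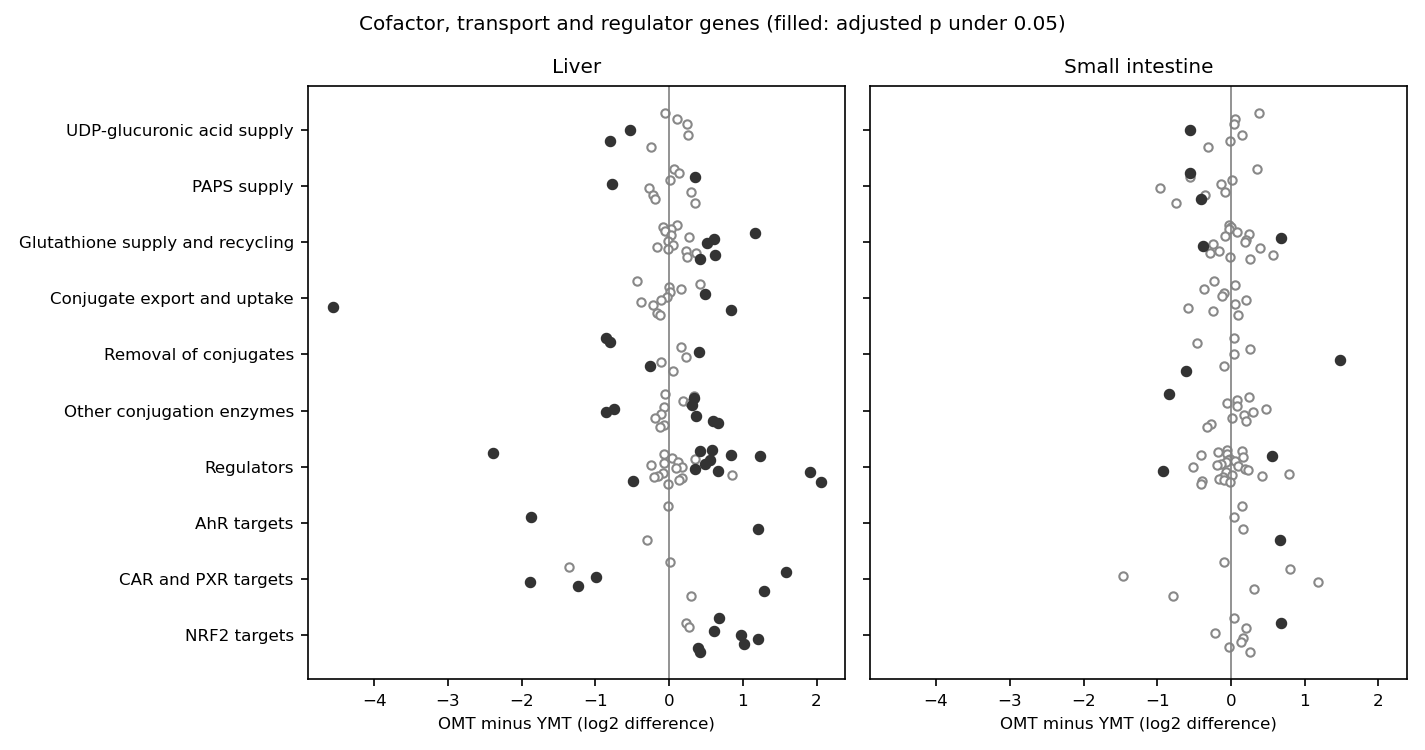
Difference of OMT minus YMT on the log2 scale for each tested gene of 10 lists of cofactor supply, transport, removal, other conjugation enzymes, regulators and receptor targets, in liver (left) and small intestine (right), 1 point per gene, filled where the adjusted p is under 0.05. The NRF2 target points in liver all lie above 0, and the farthest left point is Slco1a1 at -4.56.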

How the data were processed

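The authors deposited 1 table of log2 values for the 18 arrays. The submitters' processing notes name RMA and Affymetrix Expression Console, with no version. RMA corrects background, normalizes arrays to a common distribution and summarises probes, which compresses differences of dim probe sets. Each array took 250 ng of RNA per the labels' protocols, and the number of arrays limits the precision. No per-sample column was left unused (0). Of 41345 probe sets, 23521 have 1 gene symbol in the platform annotation, 1814 have several and 16010 have none, and only the first were used. Per gene, the probe set of highest mean in the tissue was kept. All 50 member symbols matched RefSeq by gene identifier.

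Groups came from sample titles. OMT and YMT were compared per tissue with limma 3.58.1 (lmFit and eBayes, R 4.3.3) on 5 and 4 arrays, after the filter given above, with Benjamini-Hochberg adjustment over all genes tested. A fit of all 18 arrays tested whether the difference was unequal between tissues. The code was tested on simulated data. Figures used matplotlib 3.10.9. If the replicates share donors or cages, p-values measure only the spread between these samples.

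Members and gene lists were chosen with earlier results of these data known. Named by rule were members past a threshold, the 3 of highest mean level per family, fixed examples, and up to 4 genes of smallest p per list. The other members, the genes behind counts of 5 or fewer, and the named markers were named after their values were seen. So were Ahr, Arnt and the list genes that were not called. Alternatives were the filter, eBayes settings, array weights, normalization, the choice of probe set, a fit of all arrays, a replicate block, the threshold and leaving out each array. Deviations of same-numbered OMT and YMT samples correlated at -0.18 to 0.09 in liver and at -0.06, 0.08, 0.18 and 0.32 in intestine, and those of same-numbered liver and intestine samples at -0.04 to 0.15. The replicate numbers were not taken as pairs because no label says that they pair samples. With so few arrays, these correlations cannot show whether samples were paired.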

Additional observations from a re-analysis of the deposited data

Results flagged for a closer look

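In 12 of 116 groups tested, each the arrays of 1 group and tissue for a tested member, the highest or lowest array lay far from the rest by Dixon's criterion; chance marks about 1 in 20 groups. In liver these were Gstt1 in YMT replicate 4 (9.78, the others 9.83 to 9.84), Sult1c2 in YMT replicate 3 (5.90, the others 5.50 to 5.54), Ugt2b5 in YMT replicate 3 (10.35, the others 10.03 to 10.06), Ugt3a1 in YMT replicate 4 (6.91, the others 7.49 to 7.60) and Ugt8a in OMT replicate 2 (4.23, the others 4.27 to 4.28). In intestine Gstm4 stood at 5.68 in OMT replicate 4 (the others 5.49 to 5.51), Gsto1 at 10.22 in YMT replicate 2 (the others 10.13 to 10.14) and Sult1a1 at 5.64 in YMT replicate 1 (the others 4.74 to 4.84). Intestinal Sult1c2 stood at 4.07 in OMT replicate 1 (the others 4.52 to 4.57) and at 5.46 in YMT replicate 1 (the others 4.57). Intestinal Ugt8a stood at 4.84 in OMT replicate 2 (the others 4.52 to 4.56) and at 4.14 in YMT replicate 3 (the others 4.52).

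The OMT minus YMT difference was unequal between liver and intestine, by a direct test, for Gstm7 (-1.43), Gstm6 (-1.26), Gstp3 (-1.63), Gstt3 (1.16), Gstm1 (-1.10), Gstt1 (-0.58), Sult1a1 (0.77) and Sult1c2 (-0.89), given as liver minus intestine.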

How the results depend on the processing

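No member's difference changed direction among those called. Of the 15 members called in liver, 12 kept their call under every alternative they could be tested in, and Gsta3, Gstm1 and Sult5a1 did not. The 3 liver members called higher became 5 without OMT replicates 1 and 2 together (added after seeing the data) and 3 to 4 with 1 array left out, and the 12 called lower became 11 to 13 and 10 to 13 under the other settings. The 1 intestinal member called higher became 0 without the filter, with the stricter filter, after quantile normalization or median centring and without OMT replicates 1 and 2, 3 in a fit of all 18 arrays, 2 with array weights or at a threshold of 0.10, and 0 to 1 with 1 array left out. The 0 members called lower there became 3 with all 18 arrays, 2 with array weights, 1 without OMT replicates 1 and 2, and 0 to 1 with 1 array left out. The 8 members unequal between tissues became 13 without the filter, which tests all 50 members, 4 with the stricter filter and 5 to 9 with 1 array left out.

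With the replicate block, 2 members were higher and 12 lower in liver, 1 was higher and 0 were lower in intestine, and 6 were unequal between tissues. Gsta3 was not called in liver (0.34, adjusted p = 0.11 by limma), nor in the fit of all 18 arrays (adjusted p = 0.297), and was called in intestine (0.91, adjusted p = 0.034) in place of Gstm6. The gaps of Gstt1 (adjusted p = 0.0522), Sult1a1 (adjusted p = 0.0693) and Sult1c2 (adjusted p = 0.0538) were lost and that of Sult1b1 passed. The block joined same-numbered OMT and YMT samples within a tissue, and it did not join liver and intestine samples. Whether liver and intestine samples of a number came from 1 mouse is not given in the sources used here. The main test of the gaps treated all 18 arrays as independent. Over all alternatives the family counts ran, in liver, over 0 to 1 Ugt higher and 3 to 4 lower, 1 to 2 Sult higher and 1 to 3 lower, and 1 to 3 Gst higher and 5 to 7 lower. Those that varied in intestine were Gst higher (0 to 3) and lower (0 to 2) and Ugt lower (0 to 1). Over all liver genes the block gave 740 higher and 719 lower calls in place of 1388 and 1175. Signals near the array median, as for Sult1c2, Ugt8a, intestinal Gstm6, and Gstm6 and Sult5a1 in OMT livers, limit what the arrays can resolve.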
